A study of Rattus norvegicus with 28 samples.

Results

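RG334 and RG360 are 2 of the 1185 spots of a cDNA array that was hybridised with RNA of rat soleus. They were chosen by measured values: both had been seen to be higher in arrays of hindlimb-suspended rats than in the other groups. Their levels by group are therefore given as a description, without a test. The deposited table names spots by number, 0 of the 1185 numbers matched the gene table at hand, and so no gene, protein or sequence is given for either spot.

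The soleus is a postural muscle of the lower leg, built mainly of slow, oxidative fibres. Lifting the hindlimbs off the ground removes its load, and the muscle then loses mass and takes on traits of faster fibres. Acetyl-L-carnitine (ALCAR) is the acetyl ester of carnitine, the carrier that brings long-chain fatty acids into mitochondria, and it can be given as a supplement.

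All animals were female Wistar rats, 3 months old, free of specified pathogens, and each of the 4 groups had 7 arrays. Control rats stayed in cages and served as age controls for the 14 days. Suspended rats spent 14 days with the hindlimbs unloaded. ALCAR control rats received ALCAR without suspension, and ALCAR suspended rats received it over 14 days of suspension. The series design text covers 21 samples and leaves out the ALCAR control group, and no label gives the dose, the route or the length of the ALCAR treatment. Untreated rats carry numbers and ALCAR rats carry letters, so the naming scheme cannot be told apart from ALCAR. Each array held RNA from whole cross-sections, in which a change in the cells present and a change in RNA per cell cannot be told apart. That the tissue is soleus could not be checked by marker genes, since the spots carry no gene names.

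A value is the share of an array's summed signal that fell on the spot, in ppm (parts in 1e+06). No array came down to 0: the 5th percentile of an array, called its floor below, lay between 186 and 507 ppm over the 28 arrays. Because the floors differed this much, each level is also given as a ratio to the floor of its own array. A ratio close to 1 means that the spot was hardly brighter than the dimmest spots of that array. The medians of the arrays were not far above the floors, between 283 and 613 ppm. A ratio such as 1.44, for RG334 in ALCAR control O, was thus already above the median of its array. One suspended array stood apart from the rest of its group: the mean Spearman correlation of suspended 5 with the other suspended arrays was 0.642, against 0.748 to 0.836 for the other 6.

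RG334 was at most 1.47 times the floor in the control and ALCAR arrays, and at least 2.69 times in 6 of the 7 suspended arrays. It was not among the dimmest spots in every array outside the suspended group. In control 9, ALCAR control G, ALCAR control O and ALCAR suspended E it lay above the median of its array. In control muscle it ranged from 278 to 446 ppm (median 344), in ALCAR control muscle from 224 to 687 ppm (median 274) and in ALCAR suspended muscle from 251 to 576 ppm (median 355). In suspended muscle it ranged from 439 to 1869 ppm, with a median of 840 ppm. The highest values outside the suspended group, 687 ppm in ALCAR control O and 576 ppm in ALCAR suspended H, came from the arrays with the highest floors of their groups, 477 and 507 ppm.

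Set against its array's floor, RG334 averaged 1.14 ± 0.155 for control, 1.22 ± 0.125 for ALCAR control and 1.18 ± 0.0774 for ALCAR suspended muscle (SD, n = 7 each). These 3 groups overlapped throughout. The suspended arrays averaged 3.94 ± 2.27 (SD, n = 7). Suspended 6 was highest at 8.03, followed by suspended 5 at 5.31 and suspended 2 at 4.69. Suspended 1, 7 and 4 lay together at 2.91, 2.77 and 2.69. Suspended 3 was at 1.14, inside the range of the control arrays, and the other 6 all lay above the highest of the 21 arrays outside the group, control 9 at 1.47.

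RG360 separated the same arrays by a smaller margin. It ranged from 295 to 484 ppm in control (median 378), from 231 to 709 ppm in ALCAR control (median 305) and from 270 to 543 ppm in ALCAR suspended muscle (median 364). In suspended muscle it ranged from 439 to 990 ppm, with a median of 580 ppm. Plain ppm values overlapped between groups, since ALCAR control O, the array of that group with the highest floor, reached 709 ppm and 1 suspended array alone exceeded it.

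As a ratio to the floor, RG360 averaged 1.24 ± 0.121 for control, 1.27 ± 0.0964 for ALCAR control, 1.23 ± 0.131 for ALCAR suspended and 2.29 ± 0.532 for suspended muscle (SD, n = 7 each). Here 6 suspended arrays formed a narrow band, from 2.31 in suspended 7 to 2.81 in suspended 5. Suspended 3 again stood by itself at 1.14. The highest array outside the group was ALCAR suspended I at 1.50, below all 6. RG360 thus showed a narrow band where RG334 spread from 2.69 to 8.03 in the same 6 arrays.

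**Figure D1:**
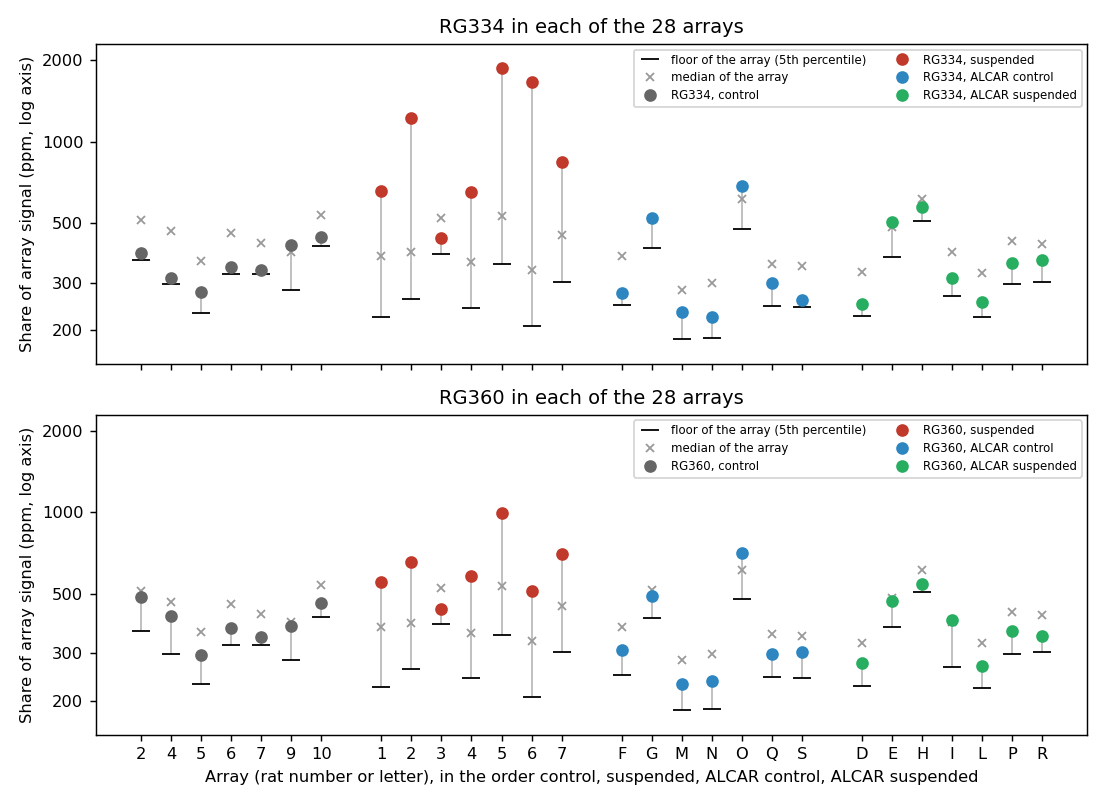
Share of the array signal in ppm (log axis) at RG334 (top) and RG360 (bottom) in each of the 28 arrays, with the floor (5th percentile, bar) and the median (cross) of the same array; each point is 1 array and grey lines join it to its floor. Points of 6 suspended arrays stand far above their floor. Those of suspended 3 (RG334 at 439 ppm) and of the other 3 groups lie at 1.50 times theirs or lower.

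How many suspended arrays lay above all 21 others depended on the scale. It was 6 of 7 for both spots relative to the floor, and also relative to the 1st percentile, the 10th percentile or the median of the array, and after quantile normalisation. The percentiles and the median are all dim levels of the same array, so these ratios are not separate checks. In plain ppm the count was 4 of 7 for RG334 and 1 of 7 for RG360, and scaling each array by its bright spots gave the same counts.

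The same count was taken over the whole array. Both the ratio to the floor and the limit of at least 6 arrays were chosen after RG334 and RG360 had been seen to have 6 such arrays on that scale, so nothing is read from how few spots reach the limit. Relative to the floor, 6 of the 1185 spots (0.506%) had at least 6 suspended arrays above every array of the other groups, and after normalisation 3 did (0.253%), both counts including RG334 and RG360. With another group in place of the suspended one the count, relative to the floor, was 1 for control, 0 for ALCAR control and 1 for ALCAR suspended arrays. After normalisation it was 0, 0 and 3, so the ALCAR suspended group had as many such spots as the suspended group. The other spots of the 6 were R347, R537, RG100 and RG448, and the normalised count held R296 beside RG334 and RG360. Suspended 3 was the array that did not exceed the rest at R347, RG100 and RG448 as well, and suspended 2 was that array at R537 and R296. At R347 and RG100 the margin was thin: the lowest of their 6 high arrays stood at 1.90 and 1.36, next to 1.87 and 1.36 for the highest array of the other groups. These spots are named because they make up the count, after their values were seen.

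limma called 31 spots (2.62% of all spots) higher in suspended than control muscle at an adjusted p under 0.05, RG334 and RG360 among them. On the normalised scale suspended 3 was the lowest of the 7 suspended arrays at 8 of these 31, RG334 and RG360 included. Suspended 2 was lowest at 9 of them. Over all 1185 spots suspended 3 was lowest at 186 (15.7%) and highest at 253 (21.4%), while suspended 5 was lowest at 346 (29.2%). Suspended 3 was thus not low in general. Its floor of 385 ppm was the highest of the suspended arrays. The part of the floor in its low levels at RG334 and RG360 was not tested.

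After quantile normalisation of log2(ppm + 335), RG334 averaged 9.39 ± 0.101 for control, 9.47 ± 0.128 for ALCAR control, 9.45 ± 0.0848 for ALCAR suspended and 10.31 ± 0.649 for suspended muscle (SD, n = 7 each). RG360 averaged 9.45 ± 0.0667, 9.50 ± 0.124, 9.46 ± 0.0660 and 9.89 ± 0.282 in the same order of groups. This scale adds a pseudocount of 335 ppm, about the level of the floor, and so it understates the difference of dim spots. The suspended minus control difference in the log2 level was 0.93 (SE 0.25) for RG334 and 0.44 (SE 0.11) for RG360, with errors from the SDs of the groups compared. ALCAR suspended minus suspended was −0.87 (SE 0.25) for RG334 and −0.43 (SE 0.11) for RG360. Both comparisons contain the same 7 suspended arrays, so their opposite signs are not separate observations.

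Both spots belonged to the 31 of 1185 spots (2.62%) called higher in suspended than control muscle by limma at an adjusted p under 0.05, and to the 14 (1.18%) called lower in ALCAR suspended than suspended muscle. The spots had been picked from these comparisons, so nothing is read from their membership. RG360 was not called in either comparison without normalisation or with each array scaled by its bright spots, and neither spot was called when the suspended and ALCAR suspended arrays were fitted alone. That last fit called 0 spots lower, with 248 spots of either direction at an unadjusted p under 0.05. Suspended 5, the array that stood apart, was the highest of the 7 suspended arrays at 19 of the 31 spots, and at 26.3% of all spots. Without it the suspended minus control difference was 0.75 for RG334 and 0.36 for RG360. Without suspended 3 it was 1.09 and 0.53.

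Among the 3 groups without the high level, the order of the normalised means was ALCAR control, ALCAR suspended, control for both spots. No neighbours in that order were apart by more than their spread. For RG334, ALCAR control minus control was 0.08 (SE 0.062), ALCAR suspended minus control 0.06 (SE 0.050) and ALCAR suspended minus ALCAR control −0.02 (SE 0.058). For RG360 these differences were 0.05 (SE 0.053), 0.01 (SE 0.035) and −0.04 (SE 0.053). The suspension difference with ALCAR minus that without it was −0.95 (SE 0.26) for RG334 and −0.48 (SE 0.12) for RG360. Both spots were chosen for being high in suspended arrays only, which fixes the sign of this difference and can enlarge its size. It is a description and no separate observation.

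The suspended group also had the widest spread. The SD of RG334 on the normalised log2 scale was 6.12 times the pooled SD of the other 3 groups, and that of RG360 was 3.13 times. The median of this ratio over all 1185 spots was 0.885, and RG334 held place 8 and RG360 place 46. The level differs between these groups as well, and a spot near the floor has little room to vary, so the spread is not separate from the level.

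The rule used differences between groups, not how both spots varied together between rats of 1 group. It did read the same suspended values, though. Suspended 5 was highest of its group at 19 of the 31 spots limma called higher in suspended muscle, and at 26.3% of all spots. It was also highest at RG334 and RG360 on the normalised scale. Choosing suspended-raised spots can thus favour pairs that peak in the same array. The p-values for suspended arrays are therefore not independent of the choice. In suspended arrays Pearson's r of the normalised values was 0.87 (exact permutation p 0.0218, Benjamini-Hochberg adjusted 0.0437 over 4 groups, n = 7, two-sided), and Spearman's rho was 0.786 (exact permutation p 0.0480, adjusted 0.192). On this scale, without suspended 3 and suspended 5, the arrays farthest from the median of RG334, r was 0.066 (exact permutation p 0.867, n = 5). These were the lowest and the highest array at RG334. Leaving both out narrows the range, which can lower r by itself, so this cannot show that the relation rested on them. Without suspended 3 alone r was 0.78 (exact permutation p 0.0722), and without suspended 5 alone 0.73 (exact permutation p 0.118). Leaving out suspended 1, 2, 3, 5 or 7 one at a time ended the call (adjusted exact permutation p 0.05 to 0.230). With ratios to the floor, a scale added after the values were seen, r was 0.81, with an exact permutation p of 0.0242 and an adjusted p of 0.0968, and the call was lost; rho was 0.857 (exact permutation p 0.0238, adjusted 0.0952). On the ratio scale the arrays farthest from the median were suspended 3 and 6, and r without them was 0.86 (exact permutation p 0.0167, n = 5). Leaving out the farthest arrays thus lowered r on the normalised scale and not on the ratio scale. Without normalisation r was 0.63 and the call was lost (exact permutation p 0.117, adjusted 0.117). Over the 7 suspended arrays, Pearson's r of the normalised values passed after adjustment, and Spearman's rho, the ratio scale and the values without normalisation did not.

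In ALCAR control arrays r was 0.87 (exact permutation p 0.0167, adjusted 0.0437, n = 7) and rho 0.607 (exact permutation p 0.167, adjusted 0.333). The adjusted 0.0437 is the same as in suspended arrays, because the adjustment took it from the p-value of that group. That p-value is not independent of the choice of spots, so this pass is not independent of it either. Arrays O and G had the highest floors of the ALCAR control group, 477 and 405 ppm, and lay farthest from its median of RG334. Without them r was −0.35 (exact permutation p 0.617, n = 5), again over a narrower range. Leaving out F, G or O alone also ended that call (adjusted exact permutation p 0.0556 to 0.230). In control arrays r was 0.53 (exact permutation p 0.173, adjusted 0.230) and rho 0.286 (exact permutation p 0.556). In ALCAR suspended arrays r was 0.28 (exact permutation p 0.551) and rho −0.286 (exact permutation p 0.556). Neither group passed on this scale, and both signs of r turned without their 2 outermost arrays. Without normalisation ALCAR suspended arrays passed, with r = 0.95 (adjusted exact permutation p 0.00595), and so did ALCAR control arrays, with r = 0.99 (adjusted exact permutation p 0.00595), so which groups passed changed with the normalisation.

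**Figure D2:**
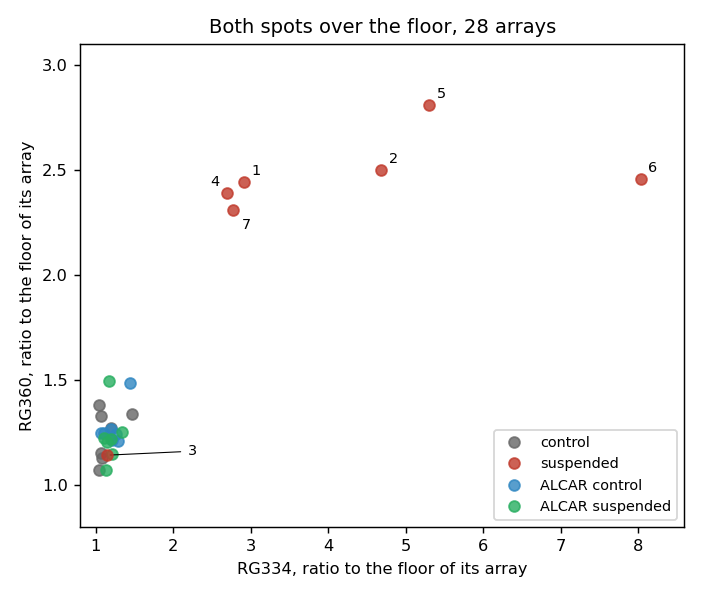
RG334 (x axis) against RG360 (y axis), each as a ratio to the floor of its array, with 1 point per array, coloured by group, and suspended arrays marked by rat number. Points of 6 suspended arrays lie at 2.69 or more on the x axis and at 2.31 or more on the y axis; suspended 3 lies among the 21 arrays of the other groups.

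The spot whose normalised values over the 28 arrays were most like those of RG334 was RG360, with r = 0.93, and RG334 was in turn the one most like RG360. RG448 came next for both (r = 0.86 with RG334 and 0.92 with RG360), then RG531 (0.80 and 0.91). The median r over all 1184 other spots was −0.03 for RG334 and −0.06 for RG360. These values are a description over 28 arrays, and the contrast between suspended and other arrays weighs heavily in them. With group means subtracted, RG360 (0.82), RG448 (0.72) and RG151 (0.65) were most like RG334, and RG531 (0.87), RG448 (0.84) and RG334 (0.82) most like RG360. Within the 7 suspended arrays alone, RG360 was in place 3 of 1184 by likeness to RG334, and RG334 in place 11 by likeness to RG360. Within the other groups these places were far lower, at 271 and 97 in control, 88 and 106 in ALCAR control and 379 and 402 in ALCAR suspended arrays.

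RG448 differed from both spots in that its control arrays reached further up. Its ratio to the floor was 3.04 ± 0.950 in suspended arrays, against 1.52 ± 0.429 for control, 1.47 ± 0.157 for ALCAR control and 1.30 ± 0.231 for ALCAR suspended muscle (SD, n = 7 each). It stood at 2.80 to 4.21 in 6 suspended arrays and at 1.17 in suspended 3, while the highest array outside the group, a control array, was at 2.17. After normalisation it had fewer than 6 suspended arrays above all others. RG531 was at 1.24 in suspended 3 and at 2.17 to 3.01 in the other suspended arrays, but an ALCAR suspended array reached 2.58, so the groups overlapped. RG151 stood at 2.62 in suspended 5 and between 1.10 and 1.35 in the other 6 suspended arrays.

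**Figure D3:**
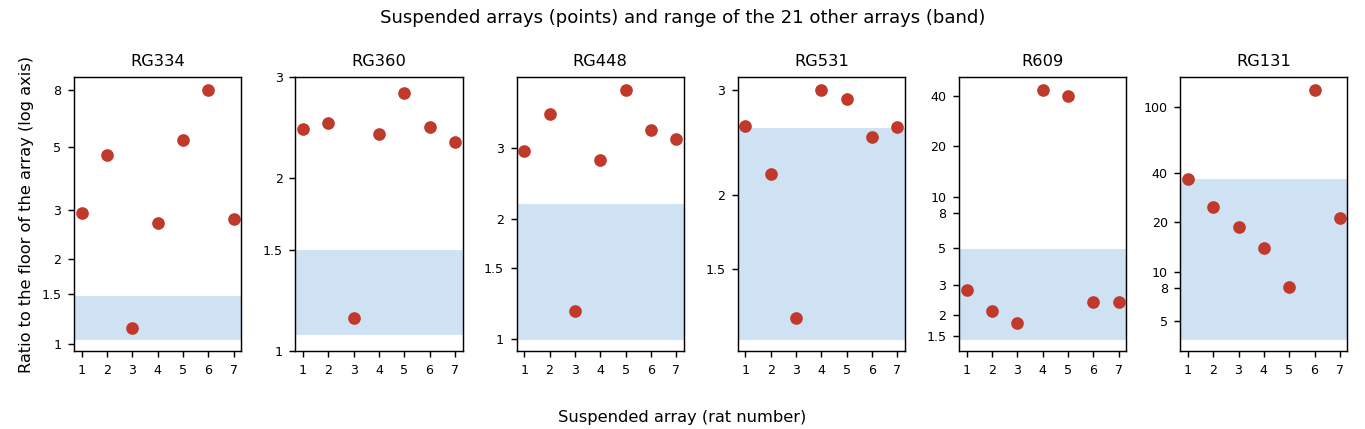
Ratio to the floor of the array (log axis, own range in each panel) at 6 spots in the 7 suspended arrays (points, by rat number), with the range of the 21 arrays of the other groups as a band. RG334, RG360 and RG448 have 6 points above the band and suspended 3 inside it, while R609 has 2 points above it and RG131 has 2.

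A high suspended mean took another form elsewhere. The gap between the suspended mean and the highest mean of the other groups, on the normalised log2 scale, was 0.85 for RG334, in place 1 of the 1185 spots, and 0.39 for RG360, in place 7. R609 (0.77), RG448 (0.56) and RG131 (0.47) held places 2 to 4. At R609 the gap came from suspended 4 and 5, which stood at 43.5 and 39.6 times the floor, while the other 5 suspended arrays ranged from 1.77 to 2.79, within the 1.44 to 4.86 of the other groups. At RG131, a bright spot, suspended 6 stood at 128 times the floor and the other suspended arrays between 8.12 and 36.7, with up to 36.2 in the other groups. In all, 281 of the 1185 spots (23.7%) had their highest group mean in suspended arrays. These gaps are what the choice of RG334 and RG360 used, and they are given with no test.

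**Figure D4:**
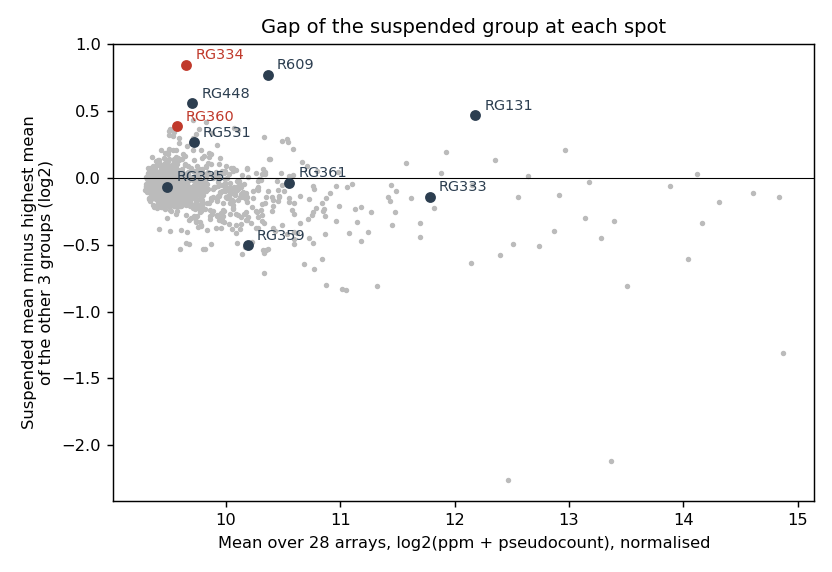
Gap between the suspended mean and the highest mean of the other 3 groups (y axis, log2) against the mean over 28 arrays (x axis, normalised log2 of ppm + pseudocount), with 1 point for each of the 1185 spots. RG334 and RG360 (red) have gaps of 0.85 and 0.39 at the dim end; the spots with neighbouring numbers (RG333, RG335, RG359, RG361) lie below 0.

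The spots with neighbouring numbers did not share the high suspended level. RG333 is bright and averaged 3704 ± 806 ppm in control and 3133 ± 1060 ppm in suspended muscle (SD, n = 7 each). RG335 is dim, with 423 ± 51.6 and 383 ± 72.5 ppm. RG359 averaged 1292 ± 728 and 681 ± 124 ppm, and RG361 1280 ± 292 and 1182 ± 169 ppm. For these 4 spots the suspended mean was below the highest mean of the other groups, by gaps of −0.14, −0.07, −0.51 and −0.04 on the normalised log2 scale. Whether neighbouring numbers lie side by side on the membrane is not given in the sources used here.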

How the data were processed

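Total RNA from pooled 25 µm cryosections was purified by a modified RNeasy protocol, and 3 µg were reverse-transcribed with the primers of the Atlas Rat 1.2 cDNA array and labelled with P32, per the labels' protocols. The deposited values are hybridisation intensity in 1 colour, scaled so that each array sums to 1; they were multiplied by 1e+06. How spots were quantified, and whether background was removed, is not given in the sources used here. The number of arrays limits the precision. The labels name single rats but no batch; where arrays shared an animal, the p-values describe technical spread.

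The members, spots and tests were chosen with earlier results of these data known. Values were transformed as log2(ppm + 335), the pseudocount being the lower quartile of all values, and quantile normalised. limma 3.58.1 in R 4.3.3 (a mean per group over all 28 arrays, eBayes with trend, two-sided, Benjamini-Hochberg over all spots) was used for counts of called spots alone. It was tested on simulated data in 2 ways. With changes spread over all spots, dim ones included, false calls ran above the nominal rate and above the limit set for the test. A second simulation, with changes on the brighter spots, was designed after that failure and stayed within the limit, so calls among dim spots, RG334 and RG360 included, may hold more false ones than the adjusted p states. Exact permutation tests covered all pairings of 7 arrays. Named spots are RG334 and RG360, the 3 spots most like each by Pearson's r (with and without group means), the 3 other spots with the largest suspended gap and the neighbouring numbers. The ratio to the floor, and the limit of at least 6 of 7 arrays, were chosen after the members' values had been seen. Alternatives changed the pseudocount, normalisation, floor, filter, prior, array weights, samples and rat-number block.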

Additional observations from a re-analysis of the deposited data

Results flagged for a closer look

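In each group of 7 arrays, the gap of the outermost array to the next was set against the group's range (Dixon's test), for both spots in ppm and as a ratio to the floor. Of 16 such groups, 5 had an array beyond the limit, all on the ratio scale. For normally distributed values chance gives about 1 in 20. Ratios near the floor have little room below 1, so that rate need not hold for them. The choice of both spots also used these values, and so no excess is read from the count. The values on the 2 scales come from the same arrays, so the 16 are not independent. RG360 in suspended 3 was 1.14 times the floor, with the next array at 2.31. RG360 in ALCAR control O was at 1.49, with the next at 1.26, and in ALCAR suspended I at 1.50, with the next at 1.25. RG334 in control 9 was at 1.47, with the next at 1.20, and in ALCAR suspended E at 1.34, with the next also at 1.20.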

How the results depend on the processing

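Both spots kept the sign of their differences in all settings run, and sizes moved with the scale. Suspended minus control for RG334 was 3.61 with the 5th percentile of each array subtracted, 1.58 as a log2 ratio to it, and 1.36 and 0.47 at a pseudocount of a 10th and 4 times the lower quartile; for RG360 these were 2.09, 0.85, 0.69 and 0.20. ALCAR suspended minus suspended was −3.25, −1.51, −1.25 and −0.45 for RG334, and −2.26, −0.86, −0.68 and −0.20 for RG360. Leaving out 1 array gave 0.75 to 1.09 and 0.36 to 0.53 for the first difference, and −1.03 to −0.70 and −0.52 to −0.35 for the second. The number of suspended arrays above all others fell from 6 to 4 for RG334 and to 1 for RG360 in ppm and with bright-spot scaling. Spots called higher in suspended than control (31) numbered 7 without normalisation, 9 with bright-spot scaling, 9 with only these groups, 69 with array weights and 17 to 44 without 1 array. Spots called lower in ALCAR suspended than suspended (14) numbered 2, 2, 0 and 52 in the same settings, 5 among spots above the median signal and 5 to 37 without 1 array. With rat number as a replicate block, 2 spots were called higher in suspended than control, as without the block in the same arrays. After subtraction of group means, same-numbered arrays correlated at −0.08 to 0.31 in 5 pairs, and no control array was closest to its own number. So few pairs cannot decide whether same-numbered arrays share more than a number. The correlation of both spots without the 2 outermost arrays was −0.55 (control), 0.066 (suspended), −0.35 (ALCAR control) and −0.12 (ALCAR suspended). Without normalisation it was 0.63 in suspended arrays, which lost the call, and 0.95 in ALCAR suspended arrays, which gained it; as ratios to the floor it was 0.81 in suspended and 0.64 in ALCAR control arrays, and both calls were lost. Without 1 array it ran from −0.17 to 0.72, 0.73 to 0.95, 0.63 to 0.93 and −0.38 to 0.66 in these groups. The causes were not tested. The ratio scales, and the block's arrays without the block, were added after seeing the data. Levels near the floor limit what can be read outside the suspended group.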
